A study of Mus musculus with 12 samples.

Results

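The tumor necrosis factor (TNF) and TNF receptor superfamilies were examined through 34 of the 750 endogenous probes of an nCounter panel of mouse immune genes. The members were chosen by a rule on names, with earlier results of these data known. They were every endogenous probe whose name starts with Tnfsf or Tnfrsf, together with Tnf, Lta, Ltb, Ltbr, Fas, Fasl, Cd27, Cd70, Cd40 and Cd40lg. They comprised 16 ligands and 18 receptors, grouped as 11 death and TNF-type members, 13 costimulatory members, 5 B cell survival members and 5 lymphoid-tissue and bone members. The samples were 12 flank tumors of B16F10, a melanoma line from C57BL/6 mice, grown in C57BL/6 mice and injected with collagen-binding fusions of interleukin-2 and interleukin-12 or with saline. There were 4 groups of 3 tumors, each tumor from its own mouse. Repeat-dose tumors received 2 cytokine doses; their collection fell 8 days after the first and 2 days after the last. Late single-dose tumors received 1 dose and were collected 8 days later. Early single-dose tumors received 1 dose and were collected 2 days later. Saline tumors received saline and were collected 2 days later. No saline tumor was taken at 8 days, so treatment and tumor age cannot be told apart where repeat-dose or late single-dose tumors were set against saline. The RNA was extracted from fixed tissue embedded in paraffin.

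Members of the superfamily are trimeric ligands, mostly membrane proteins that can be shed, and the receptors they cluster. Some receptors carry a death domain and can start caspase-driven cell death, and most recruit TRAF adaptors that switch on NF-kB. In tumors the family is known for killing by Fas ligand and TRAIL, for costimulation of T and NK cells, and for the BAFF and APRIL signals that keep B cells and plasma cells alive.

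Counts were scaled to the geometric mean of 20 housekeeping probes in each tumor, and every level below is such a scaled count. Levels of different probes are not comparable with each other. Total endogenous counts ran between 392596 and 1232726 per tumor. The housekeeping mean was 918.6 ± 341.1 in repeat-dose tumors, 1467 ± 221.2 in late single-dose tumors and 1717 ± 410.3 in early single-dose tumors, against 2680 ± 363.1 in saline tumors (SD, n = 3 each). The geometric mean of the 6 positive-control probes was 1594 ± 70.1, 1597 ± 138.5 and 1433 ± 155.5 in the treated groups in that order, against 1653 ± 7.7 in saline tumors. The background limit, set at the mean plus 2 SD of the 8 negative probes, therefore came to 40.8 to 60.3 scaled counts in repeat-dose tumors, 24.5 to 34.9 in late single-dose tumors and 17.9 to 27.6 in early single-dose tumors, against 11.5 to 16.9 in saline tumors. All 34 members passed the filter of a count above the limit in at least 3 tumors, and 23 were above it in all 12. The other 11 fell below it in at least 1 tumor. For 15 members the highest count in any tumor was under 5 times the limit. Of 7 melanocyte genes listed, 2 (S100b and Mcam) were measured, and both were above the limit in every tumor.

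With this scaling the whole panel was shifted upward in treated tumors. Among 729 genes tested, the median log2 change over saline was 1.19 in repeat-dose tumors, 0.78 in late single-dose tumors and 0.56 in early single-dose tumors. With trimmed-mean (TMM) scaling the same medians were -0.01, -0.03 and -0.08, and with total-count scaling they were -0.44, -0.25 and -0.43. The split of genes higher and lower past the threshold, an adjusted p of 0.05 by edgeR's quasi-likelihood test, moved with it. In repeat-dose over saline it was 433 higher and 14 lower with housekeeping scaling, 234 and 169 with TMM scaling, and 159 and 250 with total-count scaling. In late single-dose over saline it was 285 and 1, 135 and 65, and 110 and 140 under those same settings. In early single-dose over saline it was 222 and 5, 143 and 55, and 113 and 161. Changes below are log2 values with their standard error (±) from edgeR with housekeeping scaling unless another setting is named, and are read against those medians.

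In repeat-dose over saline, 21 of 34 members rose and 0 fell, a share of 61.8% beside 61.3% of all 729 genes past the threshold (59.4% higher and 1.92% lower). Their median change was 1.46, against 1.19 for all genes. In late single-dose over saline, 13 members rose and 0 fell, a share of 38.2% beside 39.2% of all genes (39.1% higher and 0.137% lower), with medians of 0.89 and 0.78. In early single-dose over saline, 7 rose and 0 fell, a share of 20.6% beside 31.1% of all genes (30.5% higher and 0.686% lower), with medians of 0.65 and 0.56. The groups did not overlap, with every treated tumor higher, for 23 members in the repeat-dose comparison (64.1% of all genes), 16 in the late (42.5%) and 15 in the early (49.9%). These shares are near or below the background, so the counts alone say nothing about the family. The 3 comparisons share the saline tumors. The counts of 21 and 7 include Tnfrsf8, which passed the filter through the 3 early single-dose tumors and is therefore given as a description, with no test. The saline replicates and 1 late tumor set some of these counts. The late count was 4 without saline replicate B, 6 without saline replicate C and 6 without late single-dose replicate C. Of all 729 genes, 86, 108 and 107 passed in those fits. The early count was 4 without saline replicate B, 4 without saline replicate C and 11 without late single-dose replicate C. There 89, 107 and 266 of all 729 genes passed. When only the 6 tumors compared entered the fit, the late count was 0 of 34, as it was for 0 of all 729 genes, of which 320 had an unadjusted p under 0.05.

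A smaller set kept its call under housekeeping, TMM and total-count scaling and under DESeq2 with its own size factors. In repeat-dose over saline these were Tnfrsf14, Tnfsf10, Ltb and Tnfrsf1b. In late single-dose over saline they were Tnfrsf14, Tnfsf10, Ltb, Tnfrsf1b and Tnf. In early single-dose over saline, leaving Tnfrsf8 aside, they were Tnfrsf14 and Tnfsf10. When scaled to the 6 positive-control probes, which track the assay and not the RNA, Tnfrsf14 and Tnfsf10 still rose in repeat-dose tumors, 0 members rose in late single-dose tumors by edgeR (all-gene counts with that scaling were 38 higher and 1 lower), and both also rose in early single-dose tumors. Some members fell under the other settings. In repeat-dose over saline these were Tnfrsf10b, Tnfsf4 and Ltbr with TMM scaling and with DESeq2, those and Tnfrsf12a with total-count scaling, and Tnfrsf13c, Tnfrsf17 and Tnfsf18 with positive-control scaling, none of which fell with housekeeping scaling.

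The promoters of the 4 members that rose in repeat-dose tumors under all 4 of those settings are given here because their calls held under those settings; they were chosen after their values were seen, and Ltb and Tnfrsf1b did not pass in early single-dose tumors. Each runs from 250 bases before to 50 bases after the annotated start, 5′ to 3′ on the gene's strand, as held by RefSeq for GRCm38.p6, a build that the count files themselves do not name. Capitals mark matches to TTCNNNGAA (the interferon-gamma activated site), the core of the interferon-stimulated response element (GAAA, any 2 bases, GAAA) or the NF-kB consensus, on both strands. Tnfrsf14 lies at chr4:154928028-154928327 (minus strand), Tnfsf10 at chr3:27316827-27317126 (plus strand), Ltb at chr17:35194257-35194556 (plus strand) and Tnfrsf1b at chr4:145246821-145247120 (minus strand).
Tnfrsf14: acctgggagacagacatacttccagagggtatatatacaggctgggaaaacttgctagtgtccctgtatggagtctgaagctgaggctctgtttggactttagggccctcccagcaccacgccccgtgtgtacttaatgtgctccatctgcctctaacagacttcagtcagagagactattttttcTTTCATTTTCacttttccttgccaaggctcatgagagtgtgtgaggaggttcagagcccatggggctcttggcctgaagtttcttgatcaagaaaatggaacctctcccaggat
Tnfsf10: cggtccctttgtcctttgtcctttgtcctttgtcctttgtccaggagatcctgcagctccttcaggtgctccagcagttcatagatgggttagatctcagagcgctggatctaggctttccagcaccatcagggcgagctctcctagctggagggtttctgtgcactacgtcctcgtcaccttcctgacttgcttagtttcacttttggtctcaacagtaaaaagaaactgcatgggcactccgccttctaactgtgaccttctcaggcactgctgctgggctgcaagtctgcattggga
Ltb: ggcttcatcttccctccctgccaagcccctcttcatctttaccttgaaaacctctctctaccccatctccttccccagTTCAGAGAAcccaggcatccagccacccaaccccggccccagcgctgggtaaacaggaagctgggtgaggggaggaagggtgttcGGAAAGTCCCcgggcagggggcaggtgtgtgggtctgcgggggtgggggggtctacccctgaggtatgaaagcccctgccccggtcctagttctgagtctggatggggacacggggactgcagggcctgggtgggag
Tnfrsf1b: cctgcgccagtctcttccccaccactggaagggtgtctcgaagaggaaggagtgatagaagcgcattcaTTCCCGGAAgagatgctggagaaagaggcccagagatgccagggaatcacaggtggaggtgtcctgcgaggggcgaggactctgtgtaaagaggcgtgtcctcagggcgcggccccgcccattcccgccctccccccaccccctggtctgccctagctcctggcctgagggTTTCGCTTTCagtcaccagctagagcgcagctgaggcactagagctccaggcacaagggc
Tnfrsf14 held 1 match to the response-element core, Ltb held 1 activated site and 1 NF-kB match, and Tnfrsf1b held 1 activated site and 1 response-element core. Tnfsf10 held no match in this window. Promoters were found for 27 of the 34 members, 29 promoters in all, and not for Cd40, Cd40lg, Cd70, Tnfrsf10b, Tnfrsf11b, Tnfsf12 or Tnfsf4. The activated-site letters were in 24.1% of the members' promoters and 8.3% of all 32851 promoters, the response-element core in 13.8% and 3.44%, and the NF-kB consensus in 10.3% and 8.46%. A match is a description of the letters and not a bound site.

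Of the 11 death and TNF-type members, 8 rose in repeat-dose tumors, 7 in late single-dose tumors and 4 in early single-dose tumors, and 0 fell. Among all genes, 59.4%, 39.1% and 30.5% rose in those groups. The median log2 changes of the 11 members were 1.60, 1.19 and 1.09, against all-gene medians of 1.19, 0.78 and 0.56. No test of the role against other genes was made.

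**Figure D1:**
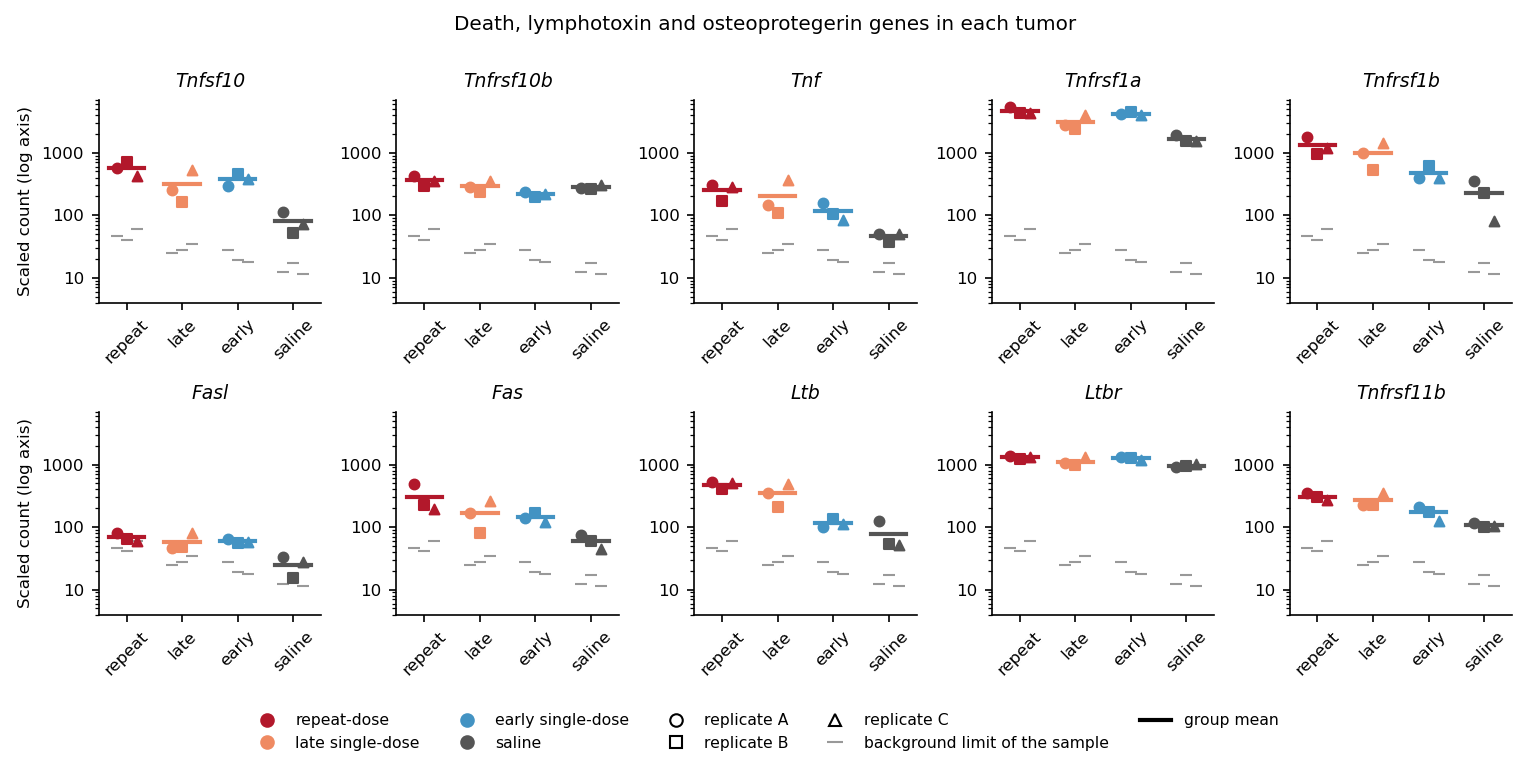
Scaled counts (log axis) of 10 death and TNF-type and lymphoid-tissue members in each of the 12 tumors; points are tumors, with a shape for each replicate letter, bars are group means, and grey ticks are each tumor's background limit. The treated tumors lie above all 3 saline tumors for Tnf and Tnfsf10, while Tnfrsf10b overlaps or lies below saline; with TMM scaling Tnfrsf10b is lower than saline in all 3 treated groups.

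Tnfsf10 encodes TRAIL, a ligand that triggers death through its receptor. Its scaled counts were 561, 699.6 and 419 in repeat-dose tumors, 254, 160.2 and 527 in late single-dose tumors and 298, 450.4 and 379 in early single-dose tumors, against 113, 52.8 and 73.2 in saline tumors. All 9 treated tumors were above all 3 saline tumors. Tnfsf10 rose by 2.82 ± 0.46 in repeat-dose tumors (adjusted p = 8.75e-04), 1.97 ± 0.44 in late single-dose tumors (adjusted p = 0.00937) and 2.24 ± 0.45 in early single-dose tumors (adjusted p = 0.00579). With TMM scaling the changes were 1.69, 1.11 and 1.66 in that order of groups, and each passed. Tnfsf10 lost its late single-dose call without saline replicate B (1.75, adjusted p = 0.0503).

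Tnfrsf10b encodes the mouse TRAIL death receptor. Its counts were 429.6, 290.3 and 358 in repeat-dose tumors, 286, 235 and 357 in late single-dose tumors and 235, 196 and 217 in early single-dose tumors, against 270.3, 265 and 300.1 in saline tumors. Repeat-dose and late single-dose tumors overlapped saline, and all 3 early single-dose tumors were below it. No change passed with housekeeping scaling: 0.37 ± 0.22 in repeat-dose (adjusted p = 0.17), 0.07 ± 0.22 in late single-dose (adjusted p = 0.855) and -0.37 ± 0.22 in early single-dose tumors (adjusted p = 0.235). With TMM scaling the same changes were -0.87 (adjusted p = 0.00406), -0.74 (adjusted p = 0.0232) and -1.02 (adjusted p = 0.00342), so the sign in the 2 groups taken at 8 days depends on the scaling. Under every scaling run, the change of Tnfrsf10b was below that of Tnfsf10, its ligand, in each treated group; the difference between the 2 genes was not tested.

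Tnf encodes the founding cytokine of the family. Its counts were 309, 165 and 278 in repeat-dose tumors, 144, 109 and 364 in late single-dose tumors and 156, 106 and 83.8 in early single-dose tumors, against 50.7, 37.7 and 50.3 in saline tumors. Every treated tumor was above every saline tumor, and the highest single value was in late single-dose replicate C. Tnf rose by 2.44 ± 0.47 in repeat-dose tumors (adjusted p = 0.00173) and 2.15 ± 0.47 in late single-dose tumors (adjusted p = 0.0081), and did not pass in early single-dose tumors (1.31 ± 0.46, adjusted p = 0.0503). With total-count scaling the repeat-dose change was 0.80 and did not pass (adjusted p = 0.06), and the late single-dose change of 1.00 passed.

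Lta encodes lymphotoxin alpha, which binds the same 2 receptors as TNF. It had counts of 176, 55.1 and 86.4 in repeat-dose tumors, 35.2, 34.02 and 89.2 in late single-dose tumors and 70.7, 75.8 and 36.4 in early single-dose tumors, against 35.99, 20.7 and 29.1 in saline tumors. Lta rose by 1.89 ± 0.54 in repeat-dose tumors (adjusted p = 0.0106), and did not pass in late single-dose tumors (0.87 ± 0.53, adjusted p = 0.221) or early single-dose tumors (1.09 ± 0.53, adjusted p = 0.14). With TMM scaling its repeat-dose change was 0.63 and did not pass. Repeat-dose replicate A alone exceeded 100 counts, at 176. Lta lost its repeat-dose call without repeat-dose replicate A (1.29, adjusted p = 0.0658).

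Tnfrsf1a encodes TNF receptor 1, which carries the death domain and is made by nearly all cells. Its counts were 5292, 4339.6 and 4243 in repeat-dose tumors, 2780.4, 2387 and 3996 in late single-dose tumors and 4144, 4469 and 3963 in early single-dose tumors, against 1893, 1525 and 1535 in saline tumors. All treated tumors were above all saline tumors. Tnfrsf1a rose by 1.49 ± 0.24 in repeat-dose tumors (adjusted p = 8.75e-04), 0.89 ± 0.24 in late single-dose tumors (adjusted p = 0.0174) and 1.34 ± 0.24 in early single-dose tumors (adjusted p = 0.00336). The late change was close to the all-gene median (0.11 above it), and with total-count scaling the repeat-dose and late changes turned to -0.15 and -0.12. Tnfrsf1a lost its late single-dose call without saline replicate B (0.83, adjusted p = 0.0739) or saline replicate C (0.84, adjusted p = 0.0633).

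Tnfrsf1b encodes TNF receptor 2, found mainly on leukocytes and endothelium. It was measured at 1792, 945 and 1197 in repeat-dose tumors, 978, 529 and 1431 in late single-dose tumors and 393, 603 and 397 in early single-dose tumors, against 358, 230.0 and 82.1 in saline tumors. Repeat-dose and late single-dose tumors all lay above both other groups except that late replicate B, at 529, was within the early range. Tnfrsf1b rose by 2.56 ± 0.54 in repeat-dose tumors (adjusted p = 0.00242) and 2.13 ± 0.53 in late single-dose tumors (adjusted p = 0.0142), and did not pass in early single-dose tumors (1.06 ± 0.51, adjusted p = 0.14). The changes in repeat-dose and late single-dose tumors also passed with TMM scaling, at 1.35 and 1.31. Tnfrsf1b lost its late single-dose call without saline replicate B (2.16, adjusted p = 0.0571) or late single-dose replicate C (1.76, adjusted p = 0.0583).

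Fas and Fasl encode the death receptor and the ligand with which T and NK cells kill. Fas had 497, 222 and 192 in repeat-dose tumors, 166, 80.1 and 265 in late single-dose tumors and 140.1, 168 and 123 in early single-dose tumors, against 73.4, 59.1 and 45.3 in saline tumors. Fas rose by 2.36 ± 0.48 in repeat-dose tumors (adjusted p = 0.00206) and 1.52 ± 0.47 in late single-dose tumors (adjusted p = 0.027), and did not pass in early single-dose tumors (1.28 ± 0.47, adjusted p = 0.0596). Fasl had 80.2, 63.9 and 60.8 in repeat-dose tumors, 45.5, 48.3 and 79.4 in late single-dose tumors and 63.9, 56.2 and 56.7 in early single-dose tumors, against 33.05, 15.1 and 27.4 in saline tumors, and saline replicate B was below its background limit. Fasl rose by 1.44 ± 0.35 in repeat-dose tumors (adjusted p = 0.00443), 1.19 ± 0.34 in late single-dose tumors (adjusted p = 0.0212) and 1.23 ± 0.34 in early single-dose tumors (adjusted p = 0.0215). For both genes every treated tumor was above every saline tumor. Fasl was near background, at no more than 3.17 times the limit in any tumor. All 3 calls of Fasl were lost with the mean of the negative probes subtracted. With TMM scaling only the repeat-dose change of Fas passed (1.10, adjusted p = 0.00771), and with total-count scaling the repeat-dose change of Fasl turned to -0.19. Fas lost its late single-dose call without saline replicate B (1.52, adjusted p = 0.0832), saline replicate C (1.36, adjusted p = 0.0963), late single-dose replicate A (1.54, adjusted p = 0.0549) or late single-dose replicate C (1.05, adjusted p = 0.132). Fasl lost its late single-dose call without saline replicate B (0.93, adjusted p = 0.0781), saline replicate C (1.26, adjusted p = 0.0633) or late single-dose replicate C (0.90, adjusted p = 0.0939). Fasl lost its early single-dose call without saline replicate B (0.96, adjusted p = 0.0827), saline replicate C (1.29, adjusted p = 0.0636) or early single-dose replicate B (1.26, adjusted p = 0.0527).

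Tnfsf12 encodes TWEAK, and Tnfrsf12a encodes its receptor Fn14. Tnfsf12 had 385, 254 and 266 in repeat-dose tumors, 215, 144 and 333 in late single-dose tumors and 158, 174 and 109 in early single-dose tumors, against 130.0, 83.6 and 86.05 in saline tumors. Tnfsf12 rose by 1.60 ± 0.35 in repeat-dose tumors (adjusted p = 0.00293) and 1.21 ± 0.35 in late single-dose tumors (adjusted p = 0.0215), and did not pass in early single-dose tumors (0.56 ± 0.34, adjusted p = 0.257). Tnfrsf12a, which is induced on injured and dividing cells, had 2255, 1678 and 2387 in repeat-dose tumors, 2473, 2315 and 1565 in late single-dose tumors and 2937, 2341 and 2906 in early single-dose tumors, against 1738, 1360.1 and 1171 in saline tumors. Tnfrsf12a rose by 0.94 ± 0.26 in early single-dose tumors (adjusted p = 0.0204), and did not pass in repeat-dose tumors (0.57 ± 0.26, adjusted p = 0.0767) or late single-dose tumors (0.57 ± 0.26, adjusted p = 0.0993). Only the early single-dose tumors were all above saline for Tnfrsf12a. With total-count scaling the early change of Tnfrsf12a turned to -0.02, its repeat-dose change to -1.03 and the repeat-dose change of Tnfsf12 to -0.04. Tnfsf12 lost its late single-dose call without saline replicate B (1.09, adjusted p = 0.0822), saline replicate C (1.11, adjusted p = 0.0794) or late single-dose replicate C (0.85, adjusted p = 0.0961). Tnfrsf12a lost its early single-dose call without saline replicate B (0.91, adjusted p = 0.0829), saline replicate C (0.82, adjusted p = 0.0881), early single-dose replicate A (0.88, adjusted p = 0.0608) or early single-dose replicate C (0.89, adjusted p = 0.0522). Tnfsf15, which encodes the cytokine TL1A, ranged between 11.6 and 96.1 counts over the 12 tumors and passed in no comparison with saline.

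Of the 5 lymphoid-tissue and bone members, 4 rose in repeat-dose tumors and 2 in late single-dose tumors, where 59.4% and 39.1% of all genes rose; in early single-dose tumors the 5 changes ran between 0.39 for Ltbr and 1.09 for Tnfrsf11a, and each missed the threshold. Their median changes were 1.51, 1.14 and 0.67 in repeat-dose, late and early single-dose tumors, against 1.19, 0.78 and 0.56 for all genes. Ltb encodes lymphotoxin beta, the membrane ligand that shapes lymph nodes and tertiary lymphoid tissue. Its counts were 524, 403 and 512 in repeat-dose tumors, 346, 212 and 485 in late single-dose tumors and 102, 133 and 113 in early single-dose tumors, against 124, 54.05 and 50.9 in saline tumors. All 6 tumors taken at 8 days were above all 6 taken at 2 days. Ltb rose by 2.65 ± 0.41 in repeat-dose tumors (adjusted p = 7.70e-04) and 2.19 ± 0.40 in late single-dose tumors (adjusted p = 0.0069), and did not pass in early single-dose tumors (0.61 ± 0.39, adjusted p = 0.278). With TMM scaling the repeat-dose and late changes were 1.51 and 1.41, both past the threshold, and the early change was 0.04.

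Ltbr, the receptor for lymphotoxin beta and for the ligand encoded by Tnfsf14, is made mostly by stromal and myeloid cells. Its counts were 1351, 1235 and 1334 in repeat-dose tumors, 1048, 996 and 1305 in late single-dose tumors and 1313, 1266 and 1192 in early single-dose tumors, against 911, 941 and 1029 in saline tumors. Ltbr rose by 0.45 ± 0.17 in repeat-dose tumors (adjusted p = 0.0421), and did not pass in late single-dose tumors (0.22 ± 0.17, adjusted p = 0.345) or early single-dose tumors (0.39 ± 0.17, adjusted p = 0.107). That call is smaller than the all-gene median (-0.75 relative to it) and turned to -0.77 with TMM scaling (adjusted p = 0.0154) and -1.19 with total-count scaling, so Ltbr has no direction that holds across scalings. Ltbr lost its repeat-dose call in 10 of the 12 fits that left out 1 tumor, at 0.41 to 0.50 (adjusted p up to 0.118), and kept it without late single-dose replicate B or C.

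The bone and lymph node ligand RANKL (Tnfsf11) has a signaling receptor, RANK (Tnfrsf11a), and a soluble decoy, osteoprotegerin (Tnfrsf11b). Tnfrsf11b had 353, 298 and 269 in repeat-dose tumors, 224, 226 and 351 in late single-dose tumors and 211, 177 and 127 in early single-dose tumors, against 118, 101 and 105 in saline tumors. All treated tumors were above all saline tumors. Tnfrsf11b rose by 1.51 ± 0.27 in repeat-dose tumors (adjusted p = 0.00109) and 1.30 ± 0.26 in late single-dose tumors (adjusted p = 0.007), and did not pass in early single-dose tumors (0.67 ± 0.26, adjusted p = 0.0734). Tnfrsf11a had 316, 209 and 150.4 in repeat-dose tumors, 188, 73.5 and 213 in late single-dose tumors and 166, 203 and 89.8 in early single-dose tumors, against 102, 76.7 and 37.4 in saline tumors. Tnfrsf11a rose by 1.65 ± 0.51 in repeat-dose tumors (adjusted p = 0.0158), and did not pass in late single-dose tumors (1.14 ± 0.50, adjusted p = 0.0978) or early single-dose tumors (1.09 ± 0.50, adjusted p = 0.123). With total-count scaling the repeat-dose change of Tnfrsf11b turned to -0.14. Tnfrsf11a lost its repeat-dose call without saline replicate C (1.34, adjusted p = 0.0549) or repeat-dose replicate A (1.33, adjusted p = 0.0664). Tnfsf11 had 70.5, 23.2 and 32.0 in repeat-dose tumors, 49.7, 42.8 and 55.7 in late single-dose tumors and 62.6, 48.2 and 38.1 in early single-dose tumors, against 35.99, 20.1 and 21.8 in saline tumors, with repeat-dose replicates B and C below their limits, and passed in no comparison with saline.

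Of the 13 costimulatory members, 7 rose in repeat-dose tumors, 3 in late single-dose tumors and 2 in early single-dose tumors, and 0 fell. Among all genes, 59.4%, 39.1% and 30.5% rose in those groups. The counts of 7 and 2 include Tnfrsf8, which passed the filter through the early group and is given as a description. The median changes of the 13 members were 1.40, 0.73 and 0.60, against 1.19, 0.78 and 0.56 for all genes.

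**Figure D2:**
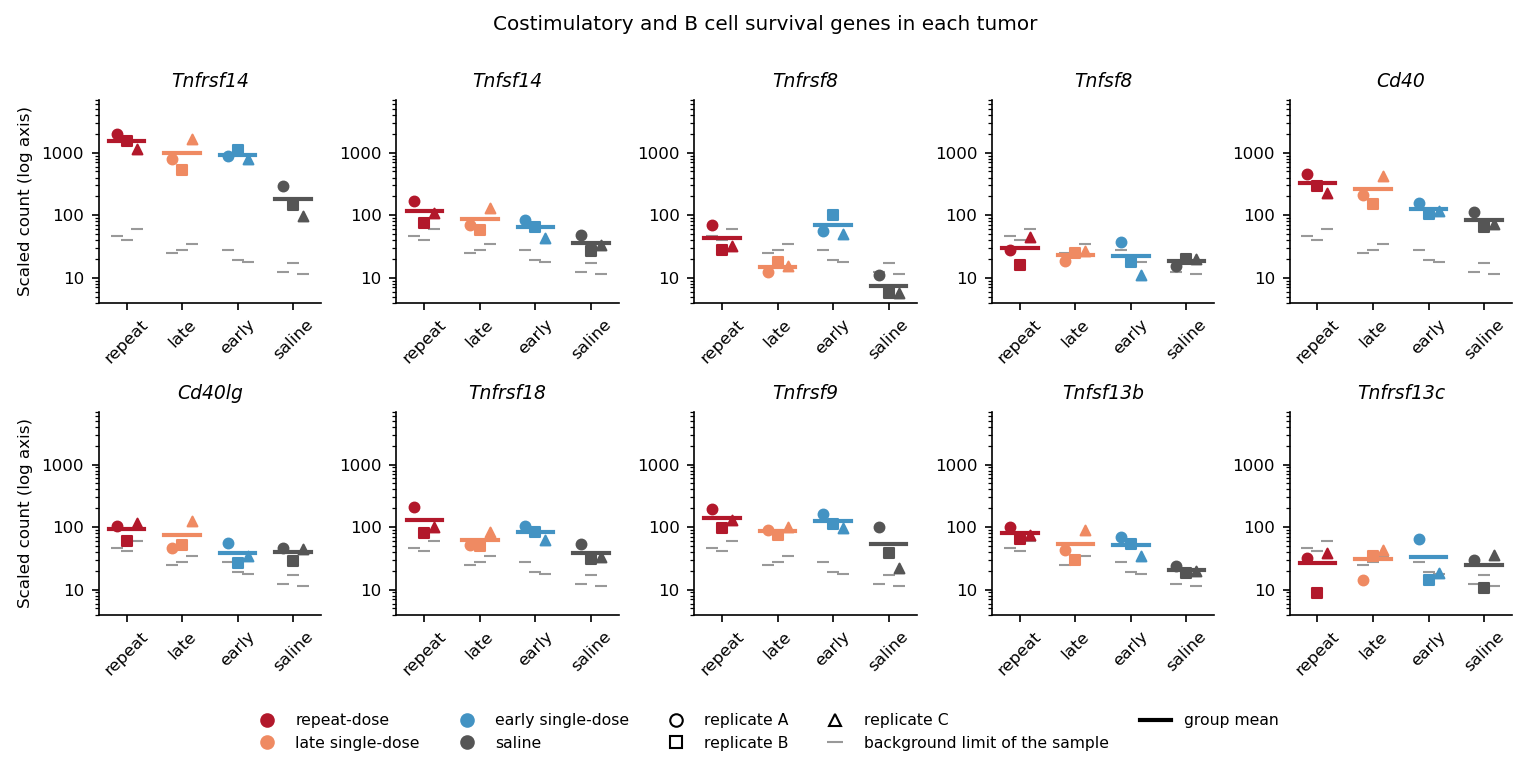
Scaled counts (log axis) of 10 costimulatory and B cell survival members in each of the 12 tumors; points are tumors, with a shape for each replicate letter, bars are group means, and grey ticks are each tumor's background limit. Tnfrsf14 lies above saline in all 9 treated tumors, and Tnfrsf8 is above its limit in all 3 early single-dose tumors but in no late single-dose or saline tumor.

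Tnfrsf14 encodes HVEM, a receptor that costimulates through the product of Tnfsf14 and inhibits through BTLA. Its counts were 1965, 1553 and 1126 in repeat-dose tumors, 784, 522 and 1643 in late single-dose tumors and 868, 1096 and 791 in early single-dose tumors, against 294, 144 and 98.3 in saline tumors. All 9 treated tumors were above all saline tumors. Tnfrsf14 rose by 3.12 ± 0.51 in repeat-dose tumors (adjusted p = 8.75e-04), 2.46 ± 0.50 in late single-dose tumors (adjusted p = 0.007) and 2.36 ± 0.49 in early single-dose tumors (adjusted p = 0.00724). Relative to the all-gene medians these were 1.93, 1.68 and 1.80. With TMM scaling the changes were 1.96, 1.61 and 1.79, and each passed.

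Tnfsf14 encodes LIGHT, the costimulatory ligand of HVEM. It had 167, 74.02 and 109 in repeat-dose tumors, 70.4, 57.1 and 132 in late single-dose tumors and 84.3, 64.2 and 43.2 in early single-dose tumors, against 47.7, 26.4 and 32.97 in saline tumors. Tnfsf14 rose by 1.71 ± 0.44 in repeat-dose tumors (adjusted p = 0.00634) and 1.27 ± 0.43 in late single-dose tumors (adjusted p = 0.0376), and did not pass in early single-dose tumors (0.83 ± 0.43, adjusted p = 0.167). With TMM scaling the repeat-dose and late changes were 0.48 and 0.45 and did not pass. Tnfsf14 lost its late single-dose call without saline replicate B (1.10, adjusted p = 0.134), saline replicate C (1.22, adjusted p = 0.11), early single-dose replicate B (1.27, adjusted p = 0.0516), late single-dose replicate A (1.40, adjusted p = 0.0543), late single-dose replicate C (0.84, adjusted p = 0.188) or repeat-dose replicate C (1.27, adjusted p = 0.0501).

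Tnfrsf8 encodes CD30, a receptor of activated lymphocytes. Its counts were 70.5, 27.6 and 32.0 in repeat-dose tumors, 12.4, 17.6 and 15.3 in late single-dose tumors and 55.8, 102 and 49.1 in early single-dose tumors, against 11.02, 5.66 and 5.59 in saline tumors. The 3 early single-dose tumors and repeat-dose replicate A were above their background limits, and the other 8 tumors were below theirs. It passed the filter through the early group, so its levels are a description. The mean of the early single-dose tumors was 5.08 times the mean saline limit, so the fold between group means was at least that. Its ligand Tnfsf8 had 27.2, 15.97 and 44.8 in repeat-dose tumors, 18.6, 25.2 and 26.5 in late single-dose tumors and 36.7, 17.8 and 11.01 in early single-dose tumors, against 15.4, 20.1 and 20.1 in saline tumors, was below the limit in 8 of 12 tumors and passed in no comparison with saline.

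CD40 licenses dendritic cells, macrophages and B cells when T cells present CD40 ligand. Cd40 had 454, 298 and 227 in repeat-dose tumors, 211, 149 and 426 in late single-dose tumors and 158, 103 and 119 in early single-dose tumors, against 113, 64.1 and 73.2 in saline tumors. The repeat-dose and late single-dose tumors were above all saline tumors, and the early single-dose tumors overlapped them. Cd40 rose by 1.97 ± 0.43 in repeat-dose tumors (adjusted p = 0.00279) and 1.65 ± 0.43 in late single-dose tumors (adjusted p = 0.016), and did not pass in early single-dose tumors (0.60 ± 0.42, adjusted p = 0.329). The 2 calls also passed with TMM scaling, at 0.77 and 0.79, and not with total-count scaling, at 0.32 and 0.57. Cd40lg had 103, 59.5 and 118 in repeat-dose tumors, 45.5, 51.6 and 127 in late single-dose tumors and 55.8, 26.8 and 33.9 in early single-dose tumors, against 46.3, 28.9 and 44.1 in saline tumors. Cd40lg rose by 1.22 ± 0.47 in repeat-dose tumors (adjusted p = 0.0412), and did not pass in late single-dose tumors (0.90 ± 0.46, adjusted p = 0.145) or early single-dose tumors (-0.05 ± 0.46, adjusted p = 0.973). The repeat-dose change of Cd40lg was near the all-gene median (0.03 relative to it) and turned to -0.40 with total-count scaling and -0.35 with positive-control scaling. Cd40 lost its late single-dose call without saline replicate B (1.49, adjusted p = 0.0699), saline replicate C (1.56, adjusted p = 0.0625) or late single-dose replicate C (1.11, adjusted p = 0.0654). Cd40lg lost its repeat-dose call without saline replicate A (1.34, adjusted p = 0.0611), saline replicate B (1.03, adjusted p = 0.134), saline replicate C (1.30, adjusted p = 0.0741), early single-dose replicate C (1.22, adjusted p = 0.0544), repeat-dose replicate A (1.14, adjusted p = 0.105) or repeat-dose replicate C (1.02, adjusted p = 0.121).

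Tnfrsf18 and Tnfrsf9 encode GITR and 4-1BB, receptors that activated T and NK cells carry. Tnfrsf18 had 212, 81.3 and 99.2 in repeat-dose tumors, 51.8, 49.4 and 84.98 in late single-dose tumors and 103, 84.7 and 62.7 in early single-dose tumors, against 52.9, 30.8 and 33.5 in saline tumors. Tnfrsf18 rose by 1.75 ± 0.42 in repeat-dose tumors (adjusted p = 0.00448), and did not pass in late single-dose tumors (0.66 ± 0.41, adjusted p = 0.231) or early single-dose tumors (1.09 ± 0.41, adjusted p = 0.0664). Its ligand Tnfsf18 had 44.9, 62.4 and 83.2 in repeat-dose tumors, 67.3, 75.7 and 73.8 in late single-dose tumors and 74.8, 22.3 and 30.5 in early single-dose tumors, against 50.7, 38.3 and 63.1 in saline tumors, with no call against saline. Tnfrsf9 had 197, 95.8 and 128 in repeat-dose tumors, 89.02, 73.5 and 98.9 in late single-dose tumors and 165, 113 and 98.2 in early single-dose tumors, against 99.9, 38.3 and 21.8 in saline tumors. Saline replicate A overlapped all 3 treated groups for Tnfrsf9. Tnfrsf9 rose by 1.40 ± 0.51 in repeat-dose tumors (adjusted p = 0.0318), and did not pass in late single-dose tumors (0.71 ± 0.50, adjusted p = 0.284) or early single-dose tumors (1.24 ± 0.50, adjusted p = 0.0822). Neither receptor passed with TMM scaling in repeat-dose tumors (0.50 for Tnfrsf18 and 0.24 for Tnfrsf9), and with total-count scaling Tnfrsf9 turned to -0.17. Tnfrsf9 lost its repeat-dose call without saline replicate B (1.21, adjusted p = 0.11), saline replicate C (1.03, adjusted p = 0.0871), repeat-dose replicate A (1.07, adjusted p = 0.135) or repeat-dose replicate C (1.46, adjusted p = 0.0508). Without saline replicate A the change of Tnfrsf9 was 2.22 (adjusted p = 0.00207).

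The remaining costimulatory members, Tnfrsf4 (OX40), Tnfsf4 (its ligand), Cd27 and Cd70 (the ligand of CD27), passed in no comparison with saline. Their counts over the 12 tumors ran between 33.5 and 141 for Tnfrsf4, 82.3 and 144 for Tnfsf4, 11.2 and 44.6 for Cd27, and 17.8 and 147 for Cd70. Cd27 was below the limit in 8 of 12 tumors. Tnfsf4 took its sign from the scaling: its changes with housekeeping scaling were 0.46 ± 0.23, 0.00 ± 0.23 and 0.19 ± 0.23 in repeat-dose, late and early single-dose tumors, and with TMM scaling -0.77, -0.80 and -0.48, of which the repeat-dose and late changes passed.

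Of the 5 B cell survival members, 2 rose in repeat-dose tumors, 1 in late single-dose tumors and 1 in early single-dose tumors. Among all genes, 59.4%, 39.1% and 30.5% rose in those groups. The median changes of the 5 members were 0.97, 0.45 and 0.35, below the all-gene medians in each group. Tnfsf13b encodes BAFF, which myeloid and stromal cells make to keep B cells alive. It had 101, 63.9 and 73.6 in repeat-dose tumors, 43.5, 29.6 and 89.2 in late single-dose tumors and 69.4, 54.4 and 33.9 in early single-dose tumors, against 23.5, 18.2 and 19.6 in saline tumors. Every treated tumor was above every saline tumor. These counts were near background. They were 1.22 to 2.16 times each tumor's limit in repeat-dose, 1.08 to 2.55 in late and 1.89 to 2.85 in early single-dose tumors, against 1.08 to 1.93 in saline tumors. The scaled limit itself was 40.8 to 60.3 in repeat-dose and 11.5 to 16.9 in saline tumors. Tnfsf13b rose by 1.96 ± 0.44 in repeat-dose tumors (adjusted p = 0.00321), 1.39 ± 0.43 in late single-dose tumors (adjusted p = 0.0274) and 1.35 ± 0.43 in early single-dose tumors (adjusted p = 0.0372). With TMM scaling only the repeat-dose change passed (0.73, adjusted p = 0.0449). With the mean of the negative probes subtracted, the late and early calls were lost. Tnfsf13b lost its late single-dose call without saline replicate B (1.32, adjusted p = 0.093), saline replicate C (1.36, adjusted p = 0.0857) or late single-dose replicate C (0.84, adjusted p = 0.144). Tnfsf13b lost its early single-dose call without saline replicate A (1.46, adjusted p = 0.0551), saline replicate B (1.28, adjusted p = 0.119), saline replicate C (1.32, adjusted p = 0.115), early single-dose replicate A (1.11, adjusted p = 0.102), early single-dose replicate B (1.32, adjusted p = 0.0976) or late single-dose replicate A (1.35, adjusted p = 0.0509).

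The receptors of BAFF and APRIL lie on B cells and plasma cells. Tnfrsf13b (TACI) had 133, 60.96 and 54.4 in repeat-dose tumors, 54.9, 39.5 and 110.1 in late single-dose tumors and 50.3, 43.7 and 38.96 in early single-dose tumors, against 44.8, 35.2 and 24.03 in saline tumors, and repeat-dose replicate C was below its limit. Tnfrsf13b rose by 1.27 ± 0.46 in repeat-dose tumors (adjusted p = 0.033), and did not pass in late single-dose tumors (0.97 ± 0.46, adjusted p = 0.118) or early single-dose tumors (0.35 ± 0.46, adjusted p = 0.639). The repeat-dose call stood 0.08 above the all-gene median and turned to -0.40 with total-count scaling. Tnfrsf13b lost its repeat-dose call without saline replicate B (1.28, adjusted p = 0.0786), saline replicate C (1.06, adjusted p = 0.111) or repeat-dose replicate A (0.74, adjusted p = 0.21). Tnfrsf13c (the BAFF receptor) had 32.1, 8.71 and 38.4 in repeat-dose tumors, 14.5, 34.02 and 43.2 in late single-dose tumors and 65.3, 14.3 and 18.6 in early single-dose tumors, against 29.4, 10.7 and 35.2 in saline tumors, and it was below the limit in 6 of 12 tumors. Tnfrsf17 (BCMA) had 67.3, 18.9 and 57.6 in repeat-dose tumors, 30.02, 30.7 and 52.9 in late single-dose tumors and 74.8, 14.3 and 23.7 in early single-dose tumors, against 45.5, 22.6 and 51.97 in saline tumors. Tnfsf13, which encodes APRIL, had 91.4, 49.4 and 99.2 in repeat-dose tumors, 41.4, 61.5 and 62.7 in late single-dose tumors and 77.5, 29.4 and 44.04 in early single-dose tumors, against 55.8, 32.05 and 33.5 in saline tumors. The groups overlapped for these last 3 genes and none passed against saline.

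**Figure D3:**
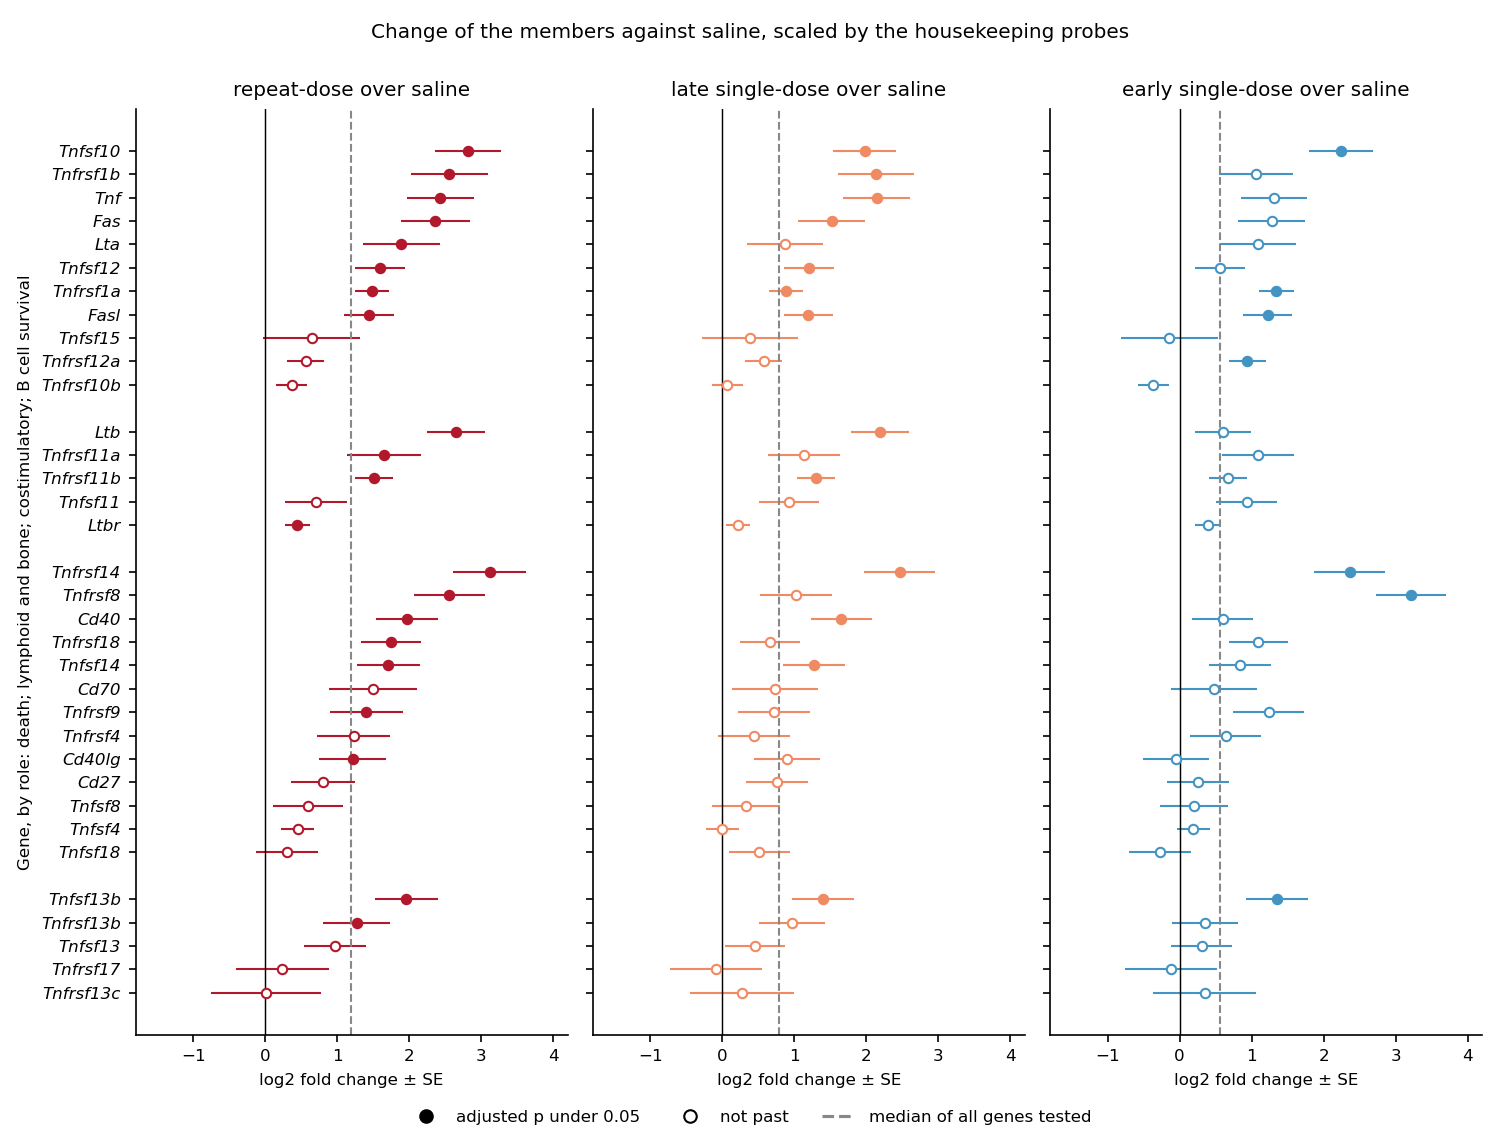
Log2 change over saline of all 34 members in repeat-dose, late single-dose and early single-dose tumors; points are edgeR estimates with their standard errors, filled where the adjusted p was under 0.05, and a line marks the median of all genes. With housekeeping scaling 21, 13 and 7 members rose, and the medians of all genes were 1.19, 0.78 and 0.56.

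The treated groups were then set against each other, to ask what the second dose and the time since the last dose changed. The comparison at equal tumor age was repeat-dose over late single-dose. There 0 of 34 members and 0 of 729 genes passed by edgeR (0% of all genes). The unadjusted edgeR p was under 0.05 for 3 members, beside 77 of all 729 genes. DESeq2 and limma also called 0 members, beside 10 and 0 of all 729 genes. The members' median was 0.41, as was that of all genes. Without late single-dose replicate C, 2 members passed: Tnfrsf1a, at 0.84 (adjusted p = 0.0316), and Tnfsf10, at 1.44 (adjusted p = 0.0386). In that same fit 100 of all 729 genes passed, so the 2 members do not set the family apart.

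In late single-dose over early single-dose, 0 of 34 members and 0 of 729 genes passed by edgeR (0% of all genes). The unadjusted edgeR p was under 0.05 for 4 members, beside 57 of all 729 genes. DESeq2 called 4 members, beside 57 of all 729 genes, and limma called 0 of either. Time since the dose and tumor age cannot be told apart here. The group mean of Tnfrsf8 was at least 2.38-fold lower in late than in early single-dose tumors, a description for the reason given with its counts. Ltb was higher in all 3 late tumors than in any early tumor, at 1.58 ± 0.39 (adjusted p = 0.158), and passed under TMM (1.36, adjusted p = 0.0207), under total-count scaling (1.51, adjusted p = 0.00902) and DESeq2 (1.40, adjusted p = 8.15e-05). DESeq2 also called Cd40 (0.85, adjusted p = 0.0204) and Tnfrsf1a (-0.59, adjusted p = 0.00205). Its count of 4 includes Tnfrsf8, which passed the filter through the early group, so that call is not read as a test.

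Repeat-dose and early single-dose tumors were both taken 2 days after a dose but 8 and 2 days after the first injection, so the second dose and tumor age cannot be told apart. In repeat-dose over early single-dose, 0 of 34 members and 0 of 729 genes passed by edgeR (0% of all genes). The unadjusted edgeR p was under 0.05 for 9 members, beside 176 of all 729 genes. DESeq2 called 2 members, beside 57 of all 729 genes, and limma called 0 of either. Ltb came nearest, at 2.05 ± 0.40 (adjusted p = 0.0542), with all 3 repeat-dose tumors above all 3 early tumors. It passed with TMM scaling (1.47, adjusted p = 0.0183) and with DESeq2 (1.499, adjusted p = 2.25e-05), and in 5 of the 12 fits that left out 1 tumor. The members' median was 0.63 and that of all genes 0.49. Whether the second dose changed a member differently from the first was also tested. By edgeR 0 of 34 members and 0 of 729 genes passed (0% of all genes). The unadjusted edgeR p was under 0.05 for 5 members, beside 79 of all 729 genes, and limma called 0 of either. DESeq2 called 2 members, Tnfrsf14 (-1.39, adjusted p = 0.0434) and Tnfrsf10b (0.93, adjusted p = 0.0262), beside 37 of all 729 genes. A joint test over all 4 groups called 15 of 34 members, a share of 44.1% beside 48.8% of all genes. The 34 include Tnfrsf8, which passed the filter through the early group, so its result there is not read as a test.

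**Figure D4:**
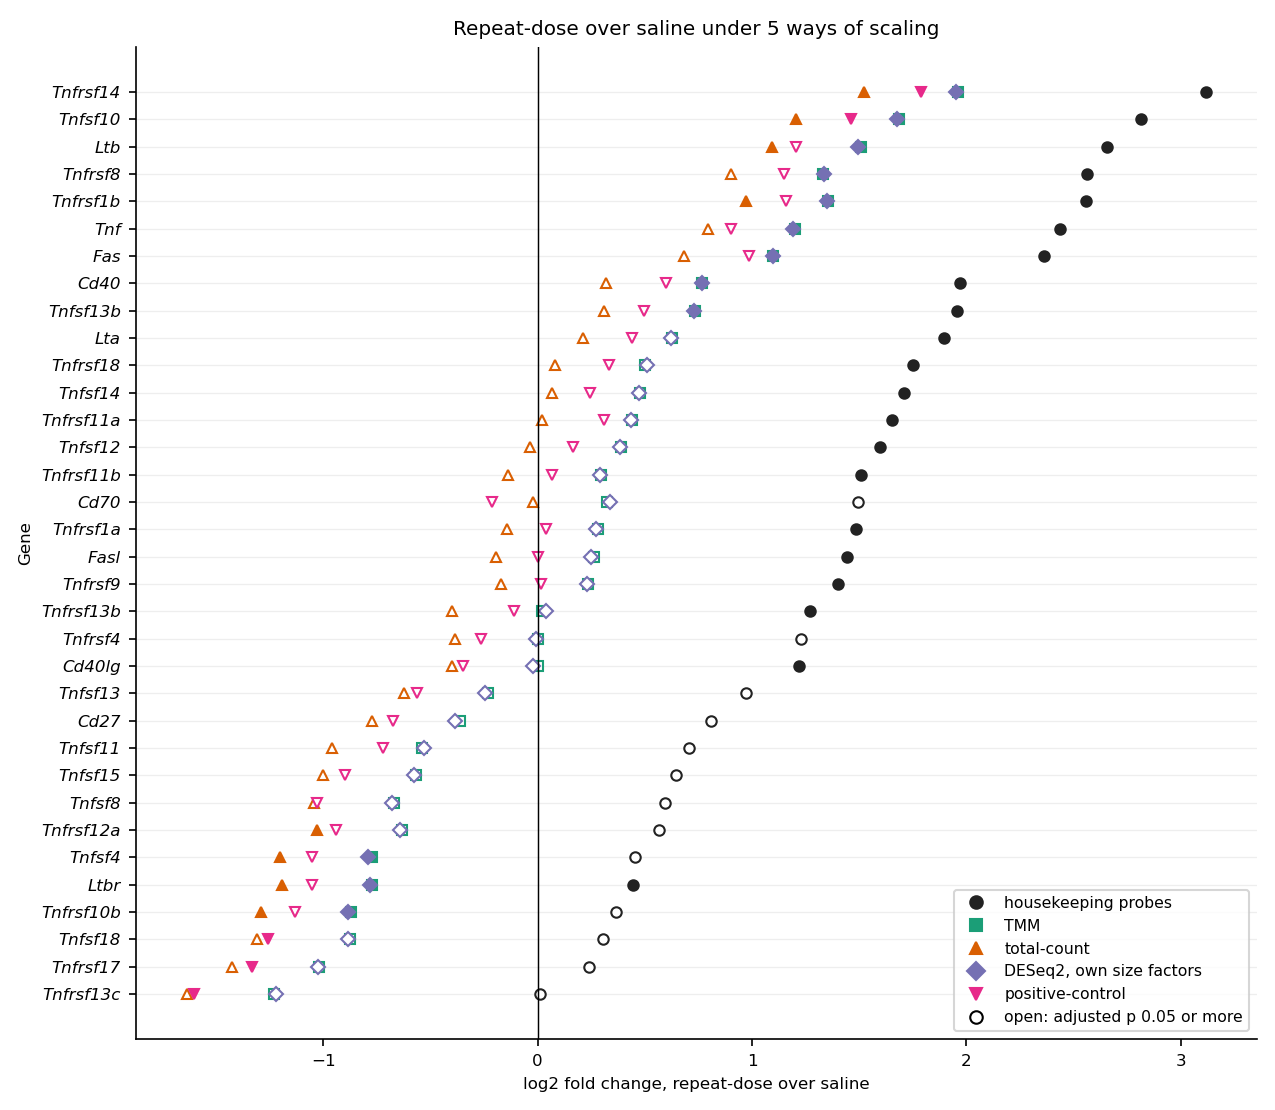
Log2 change of all 34 members in repeat-dose over saline tumors under housekeeping, TMM, total-count and positive-control scaling and with DESeq2's own size factors; filled symbols passed an adjusted p of 0.05 and open symbols did not. Tnfrsf14 and Tnfsf10 are above 0 and pass under each setting, while Ltbr is 0.45 with housekeeping scaling and below 0 under the other 4.

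Genes were also counted from lists of adaptors and kinases, death machinery, and NF-kB factors and targets. The lists were drawn by role, and not every gene on them need act beneath these receptors. They were set beside 59.4%, 39.1% and 30.5% of all genes that rose in repeat-dose, late and early single-dose tumors. Of 14 adaptors and kinases measured, 6 rose in repeat-dose tumors, 3 in late single-dose tumors and 2 in early single-dose tumors, with medians of 0.41, 0.20 and 0.22 that lay below the all-gene medians. Of 6 death machinery genes, 4, 2 and 3 rose in those groups, with medians of 0.57, 0.23 and 0.47 that were also below the all-gene ones. Casp1, the inflammatory caspase, had 2342, 1832 and 1085 in repeat-dose tumors, 669, 312 and 1487 in late single-dose tumors and 465, 812 and 399.7 in early single-dose tumors, against 149.8, 94.3 and 66.5 in saline tumors, and rose by 4.08 ± 0.61, 2.99 ± 0.59 and 2.44 ± 0.57 in repeat-dose, late and early single-dose tumors. The changes of Bid, a pro-death BCL-2 relative, were 1.10 ± 0.20, 0.91 ± 0.20 and 1.16 ± 0.20, and those of Casp8, the caspase that death receptors activate, were 0.66 ± 0.21, 0.37 ± 0.21 and 0.61 ± 0.21. Fadd, on the same list, had 309, 295 and 288 in repeat-dose tumors, and 326, 325 and 371 in late single-dose tumors. Its counts were 318, 268 and 306 in early single-dose tumors, against 359, 350 and 452 in saline tumors. All repeat-dose and early single-dose tumors were thus below all saline tumors for Fadd, though 0 of the 6 genes fell past the threshold. All 8 NF-kB factors and brakes rose in repeat-dose tumors, 4 in late single-dose tumors and 2 in early single-dose tumors, with medians of 1.33, 0.84 and 0.42, near the all-gene medians of 1.19, 0.78 and 0.56. Nfkbia, which encodes the NF-kB inhibitor IkB alpha, had 1112, 543 and 765 in repeat-dose tumors, 392, 279 and 809 in late single-dose tumors and 452, 557 and 389.6 in early single-dose tumors, against 176, 127 and 146 in saline tumors, and all treated tumors were above all saline tumors. Of 13 NF-kB target genes tested, 9, 6 and 5 rose, with medians of 2.50, 1.66 and 1.05, above the all-gene medians in each group. Ccl5, a T cell chemoattractant, had 3628, 3327 and 2732 in repeat-dose tumors, 2585, 1436 and 4992 in late single-dose tumors and 554, 1216 and 859 in early single-dose tumors, against 388, 211 and 98.3 in saline tumors, and all 9 treated tumors were above all saline tumors.

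Markers of other cell types were counted beside the same background, 59.4%, 39.1% and 30.5% of all genes higher in repeat-dose, late and early single-dose tumors. In bulk tissue, fewer cells of a type and less RNA per cell cannot be told apart. Of 9 T cell markers, 5 rose in repeat-dose tumors, 5 in late single-dose tumors and 0 in early single-dose tumors; their summed level ran from 1967 to 2320.0, 1070.0 to 2876 and 659.7 to 911.4 in those groups, against 412.9 to 861.4 in saline tumors. Of 5 NK cell markers, 4, 3 and 4 rose, and the sums ran from 1216 to 1858, 534.4 to 1466 and 1015 to 1356, against 236.9 to 456.8 in saline tumors. Of 5 macrophage markers, 5, 3 and 0 rose, with sums from 5791 to 15750, 3182 to 8295 and 2977 to 6161, against 709.7 to 2418 in saline tumors. Of 7 B cell markers, 1, 0 and 0 rose, with sums from 191.6 to 460.1, 201.9 to 353.9 and 162.3 to 487.0, against 177.2 to 276.9 in saline tumors; in 1 repeat-dose tumor only 1 of the 7 was above the limit. Of 4 dendritic cell markers 2, 1 and 0 rose, of 4 neutrophil markers 2, 2 and 0 rose, and of 5 fibroblast markers 1 rose in each treated group. Of 6 endothelial markers, 1 fell in repeat-dose tumors and 1 in early single-dose tumors. Of the 2 melanocyte genes, S100b rose (1.26 ± 0.36, adjusted p = 0.0106) and Mcam, which endothelium also makes, fell (-1.06 ± 0.33, adjusted p = 0.0168) in repeat-dose tumors, and neither passed in late or early single-dose tumors. The change of S100b was close to the all-gene median of 1.19. Among all genes, 1.92% fell in repeat-dose tumors and 0.686% in early single-dose tumors. No marker was at 0 counts in any tumor. The part of these cell types in the members' changes was not tested.

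Some members are neighbors in the genome. With no protein-coding gene annotated between them were 9 pairs of members, 16 members in all, by RefSeq's gene order. Ltb, Tnf and Lta adjoin on chromosome 17. All 3 rose in repeat-dose tumors, where 59.4% of all genes rose, and the call of Lta did not hold with TMM scaling. Ltb and Tnf rose in late single-dose tumors, where 39.1% of all genes rose. In early single-dose tumors 0 of the 3 passed, and Lta was at 1.09 ± 0.53. On chromosome 4, Tnfrsf8 was above its limit in all 3 early single-dose tumors, and its neighbor Tnfrsf1b was at 1.06 ± 0.51 there (adjusted p = 0.14). On chromosome 1, Fasl rose in all 3 treated groups with housekeeping scaling, while its neighbors Tnfsf18 and Tnfsf4 passed in none. No call of Fasl held with TMM, total-count or positive-control scaling or with DESeq2. With TMM scaling Tnfsf4 fell in repeat-dose and late single-dose tumors. Differences between neighbors were not tested.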

How the data were processed

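Gene expression was measured with the NanoString mouse PanCancer Immune nCounter panel in 12 tumors, and samples were grouped by their titles. The deposited raw files hold whole-number counts per probe, which were not normalized, per the file headers. The deposited normalized table was made by the authors in nSolver, per the labels, and its signal values came out as raw counts times 1 factor per sample within 0.00882% for counts of at least 100. The members and gene lists were chosen with earlier results of these data known.

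The main test was edgeR's quasi-likelihood test (edgeR 4.0.16, R 4.3.3, robust glmQLFit) on raw counts of 729 genes above background in at least 3 samples, in 1 fit of all 4 groups, where each library size followed the sample's geometric mean over 20 housekeeping probes. P-values were adjusted by Benjamini-Hochberg over all 729 genes, with a threshold of 0.05. Background was the mean plus 2 SD of 8 negative probes. A fold against a group below background in every sample was the mean of the higher group over the mean background limit of the lower group. Alternatives were TMM, total-count and positive-control scaling, DESeq2 1.42.0, limma 3.58.1 on log2 of the authors' signal plus 1, other filters, background subtraction, a replicate block and each sample left out. The main fit was checked on simulated counts. Every member is accounted for by role: values of every sample are given for members past the threshold in a comparison with saline or in repeat-dose over late single-dose, and for their partners, and other members are given by range. The 3 members of each signaling list with the smallest joint p could be named. Fadd was named as well, because its counts went the other way. Replicates of a group differed by more than sampling noise (chi-square per degree of freedom 23.9 to 151), so none were merged. The number of tumors, 3 a group, limits the precision. Promoters came from RefSeq tables of GRCm38.p6; all 34 members matched RefSeq gene names, which gave neighbor order.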

Additional observations from a re-analysis of the deposited data

How the results depend on the processing

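The counts of members past the threshold moved with several settings. For early single-dose over saline the count of 7 became 3 with positive-control scaling and 4 to 11 when each tumor was left out in turn. Of all 729 genes, 227 passed in the main fit, and those settings gave 87 and 89 to 268. For late single-dose over saline the count of 13 became 8 with TMM, 8 with total-count and 0 with positive-control scaling. It was 0 with only the groups compared and 4 to 14 in leave-one-out fits. The all-gene count of 286 became 200, 250, 39, 0 and 86 to 361 in that order of settings. For repeat-dose over saline the count of 21 became 12 with TMM, 8 with total-count, 5 with positive-control scaling and 12 with DESeq2. Leave-one-out fits gave 15 to 23. Among all 729 genes the main count was 447, and those settings gave 403, 409, 272, 441 and 377 to 469. For late over early single-dose the count of 0 became 2 with TMM, 2 with total-count scaling and 4 with DESeq2. Each of these includes Tnfrsf8, which is given as a description only. All-gene counts in those settings were 14, 16 and 57. For repeat-dose over early single-dose the count of 0 became 1 with TMM, 1 with total-count scaling and 2 with DESeq2. It became 1 with genes above background in all 12 tumors, 3 with only the groups compared, and 0 to 3 in leave-one-out fits. The matching all-gene counts were 19, 28, 57, 18 (of 562 genes), 83 and 0 to 49. For repeat-dose over late single-dose leave-one-out fits gave 0 to 2, and for the second-dose effect minus the first DESeq2 gave 2. All-gene counts there were 0 to 100 and 37. The joint test's 15 became 9 with total-count and 1 with positive-control scaling, and 9 to 20 in leave-one-out fits. Among all genes its 356 became 337, 108 and 173 to 398 in those settings. The members tested jointly include Tnfrsf8, whose result is a description only. Counts under TMM, total-count and positive-control scaling and DESeq2 include members that fell. With the replicate block the counts were 20 in repeat-dose, 14 in late and 10 in early single-dose tumors over saline. They were 17 in the joint test and 0 in the other 4 comparisons. The all-gene counts were 441, 275, 226, 340 and 0 in the same order. Same-letter tumors were not closer than others (r from -0.65 to 0.597, with 8 of 18 pairs over 0.1, beside 16 of 36 other pairs), so the letters were taken as names only. These changes over saline turned sign, in log2 units. With TMM scaling: Tnfrsf10b -0.87 (repeat-dose) and -0.74 (late), Tnfsf4 -0.77 (repeat-dose) and -0.80 (late), Ltbr -0.77 (repeat-dose). With DESeq2: Tnfrsf10b -0.88 and -0.75, Tnfsf4 -0.79 and -0.82, and Ltbr -0.78 and -0.58 (repeat-dose and late for each), and Cd40lg -0.02 (repeat-dose). With total-count scaling in repeat-dose tumors: Tnfrsf10b -1.29, Tnfsf4 -1.20, Ltbr -1.19, Tnfrsf12a -1.03, Cd40lg -0.40, Tnfrsf13b -0.40, Fasl -0.19, Tnfrsf9 -0.17, Tnfrsf1a -0.15, Tnfrsf11b -0.14 and Tnfsf12 -0.036. With it in late single-dose tumors: Tnfsf4 -1.02, Tnfrsf10b -0.95, Ltbr -0.78 and Tnfrsf1a -0.12; in early single-dose tumors: Tnfsf4 -0.82 and Tnfrsf12a -0.019. With positive-control scaling in repeat-dose tumors: Tnfrsf13c -1.60, Tnfrsf17 -1.33, Tnfsf18 -1.26, Ltbr -1.05, Cd40lg -0.35 and Tnfrsf13b -0.11. The cause was not tested. With the mean of the negative probes subtracted the counts were 14 in repeat-dose, 10 in late and 5 in early single-dose tumors over saline. The all-gene counts were then 386, 235 and 187. The calls lost were Cd40lg, Lta, Ltbr, Tnfrsf13b, Tnfrsf8 and Tnfrsf9 in repeat-dose, Tnfsf14 in late, Tnfsf13b in late and early, and Fasl in all 3. Removing the filter and limma on the authors' values left each count within 1.5 times. Members near the limit (15 with a highest count under 5 limits) are those this depth measures least well.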
